A study of Mus musculus with 8 samples.

Results

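The genes described here are 39 genes of the endoplasmic reticulum (ER) stress response and the unfolded protein response, measured in hepatocytes of mice with and without the cannabinoid 1 receptor. They were listed by name (sensors, transcription factors, ER chaperones and genes of ER-associated degradation) and found through the accession of their array probes; the rule used no measured value, although earlier results of these data were known when the list was drawn up. All 39 were present among the 21368 genes named on the array, and all 39 had a probe bright enough to be tested. Hepatocytes were isolated from 4 hCNR1_WT mice (hCNR1+/+) and 4 hCNR1_cKO mice (hCNR1-/-), and total RNA of each mouse was labelled with Cy3 and put on its own 1-colour Agilent array. The hCNR1-/- mice came from crosses of an albumin-Cre line with mice whose Cnr1 gene is flanked by loxP sites (CNR1flox/flox), and the hCNR1+/+ mice were their littermates. The albumin promoter drives Cre in hepatocytes, so the other cells of the liver keep the gene. The strain is given as CNRO for hCNR1+/+ and as CNRO Alb-Cre for hCNR1-/- mice. All 8 mice were male, 12 to 14 weeks old and on the standard diet, and no toxin or other treatment is named for them. The single probe of Cnr1, the deleted gene, did not rise well above background on any array (0 of 4 in hCNR1+/+, 0 of 4 in hCNR1-/-), so the genotype of each array rests on its label.

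Proteins that enter the ER are folded by chaperones and joined by disulphide bonds, and proteins that fail to fold are passed back to the cytosol and degraded. When unfolded proteins build up, the membrane sensors IRE1 (Ern1), PERK (Eif2ak3) and ATF6 (Atf6) start the unfolded protein response: IRE1 splices the mRNA of the transcription factor XBP1, PERK slows translation and favours that of ATF4, and ATF6 is cut in the Golgi to release a transcription factor. Hepatocytes secrete most plasma proteins and hold a large ER, and the response is best known there for its ties to secretion and lipid metabolism.

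ATF6 and XBP1 act on many chaperone genes through the ER stress response element (ERSE), in which the letters CCAAT, bound by NF-Y, are followed after 9 bases of any kind by CCACG. RefSeq promoters of the mouse assembly GRCm38.p6, each running from 250 bases before to 50 after a start site, were searched for it on both strands. Of the 39 genes 33 had a promoter in the table; Ppp1r15b, Atf6, Manf, Derl1, Sec61a1 and Hyou1 had none. The ERSE was found in 10 of these 33 genes (30.3%), against 39 of all 32851 promoters (0.119%) and 0 of 118 other genes of the pathway with a promoter. The first share counts genes and the second promoters. The list holds many chaperones on which the element is known to act, so a high share was in part set by the list. The 11 elements of the 10 genes are shown because the chaperones that carry them come up repeatedly in the values further on. Each is read 5′ to 3′ along its own strand, with the fixed letters in capitals and the 9 free bases in lower case.
Hspa5, chr2:34772025-34772043, plus strand: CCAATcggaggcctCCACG
Hsp90b1, chr10:86705638-86705656, minus strand: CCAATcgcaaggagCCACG
Hsp90b1, chr10:86705533-86705551, plus strand: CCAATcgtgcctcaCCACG
Calr, chr8:84847075-84847093, plus strand: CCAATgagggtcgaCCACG
Canx, chr11:50325800-50325818, minus strand: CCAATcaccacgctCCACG
Dnajc3, chr14:118937827-118937845, plus strand: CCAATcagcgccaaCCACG
Creld2, chr15:88819520-88819538, minus strand: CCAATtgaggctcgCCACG
Pdia6, chr12:17266491-17266509, plus strand: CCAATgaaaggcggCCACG
Ero1b, chr13:12565682-12565700, minus strand: CCAATgaggcgggaCCACG
Derl3, chr10:75893242-75893260, minus strand: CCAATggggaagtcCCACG
Syvn1, chr19:6046532-6046550, plus strand: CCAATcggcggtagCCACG

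Hsp90b1 carried the element at 2 places, and in the other 9 genes it was found once. Its last base lay between 25 bases (Syvn1) and 193 bases (Hsp90b1) before the start site. ERSE-II, a shorter form with the letters ATTGG, 1 base of any kind and CCACG, was found in Dnajb11 and Herpud1 and in 12 of all promoters (0.0365%). The unfolded protein response element in the form TGACGTGG, whose last letters CGTGG are also those of CCACG on the opposite strand, was in 222 of all promoters (0.676%), in 0 of the 33 genes and in 6 of the 118 other pathway genes. The C/EBP-ATF element in the form TGATGCAA, a site of ATF4 and CHOP dimers, was in Chac1, Herpud1 and 294 of all promoters (0.895%). These matches are letters found in the window and not measured binding.

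For 4 genes on which the results turn, the 250 bases before the start site are given along the gene's strand, with the whole ERSE and its free bases in capitals. Hspa5 is the classic target of the response. Canx was the gene that rose and Ero1b the gene with the widest difference in the other direction. Derl3 varied most between mice. In Ero1b and Derl3 the element lies on the opposite strand and therefore begins with CGTGG and ends with ATTGG.
Hspa5, chr2:34771840-34772089, plus strand: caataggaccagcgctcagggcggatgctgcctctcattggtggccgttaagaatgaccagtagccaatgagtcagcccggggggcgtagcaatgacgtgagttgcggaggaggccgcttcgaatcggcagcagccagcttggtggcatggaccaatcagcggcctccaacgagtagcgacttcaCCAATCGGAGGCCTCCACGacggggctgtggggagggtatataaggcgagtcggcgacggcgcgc
Canx, chr11:50325674-50325923, minus strand: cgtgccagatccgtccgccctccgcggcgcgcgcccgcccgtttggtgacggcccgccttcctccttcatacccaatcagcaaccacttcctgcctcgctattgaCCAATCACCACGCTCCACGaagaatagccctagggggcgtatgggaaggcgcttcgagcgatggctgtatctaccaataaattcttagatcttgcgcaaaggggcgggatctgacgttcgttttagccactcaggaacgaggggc
Ero1b, chr13:12565633-12565882, plus strand: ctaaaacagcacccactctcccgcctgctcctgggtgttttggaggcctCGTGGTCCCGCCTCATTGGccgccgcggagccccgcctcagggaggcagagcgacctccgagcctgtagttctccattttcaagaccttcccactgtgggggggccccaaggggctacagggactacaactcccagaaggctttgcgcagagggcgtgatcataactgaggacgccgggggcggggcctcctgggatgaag
Derl3, chr10:75893148-75893397, plus strand: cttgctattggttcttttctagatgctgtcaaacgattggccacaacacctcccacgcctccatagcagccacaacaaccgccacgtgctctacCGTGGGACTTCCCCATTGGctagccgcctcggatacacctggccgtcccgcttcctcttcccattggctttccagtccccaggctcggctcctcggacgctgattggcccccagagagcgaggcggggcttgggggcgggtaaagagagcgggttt

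The signal of each spot had been corrected for background within the array by the Agilent software. Every level below is its log2 value minus that of the array's 75th percentile over non-control spots. With 1 probe per gene and limma over 11072 tested genes, a gene was called at a Benjamini-Hochberg adjusted p below 0.05. A second rule was the study's own threshold, a fold change above 2 with an unadjusted p below 0.05. The array of hCNR1-/- replicate 4 was the dimmest (75th percentile of 29.3, against 62.0 to 139 on the other 7) and correlated less with its group over all genes (mean r of 0.942, against 0.972 to 0.975 for the other 3 hCNR1-/- arrays). All arrays lay on 1 slide, with hCNR1+/+ in row 1 and hCNR1-/- in row 2, so the row and the genotype cannot be told apart. Having 4 arrays per genotype sets the limit on precision, and p-values measure the spread between mice as labelled.

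Few of the genes differed between the genotypes beyond the spread of the mice. Canx, the lectin chaperone calnexin, rose 1.91-fold in hCNR1-/- hepatocytes. It was the 1 gene of 39 called higher at an adjusted p below 0.05 in limma, where 2.94% of all tested genes were called higher. At the same threshold 0 of 39 were called lower, against 1.30% of all tested genes. At an unadjusted p below 0.05, limma had 2 of 39 higher (Canx and Derl1) and 2 lower (Ero1b and Edem1), against 14.7% and 6.92% of all tested genes. A fold change above 2 with an unadjusted p below 0.05 was met by 0 of 39 upwards (4.78% of all genes) and by 1 of 39 downwards (3.75% of all genes), and that gene was Ero1b, an oxidase that drives disulphide bond formation. The 4 arrays of each genotype did not overlap for 1 gene upwards (Canx) and 1 downwards (Ero1b), against 12.7% and 5.04% of all tested genes. The log2 fold changes of the 39 ran from −1.36 to 0.96, with 18 above 0 and 21 below 0, and their median was −0.09, against 0.08 for all tested genes. This split moved with the scaling: 10 were above 0 and 29 below with quantile normalization (median −0.33, against −0.01 for all genes), 13 and 26 with the 75th percentile of bright probes, 14 and 25 with normexp background correction, and 6 and 33 without scaling.

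**Figure D1:**
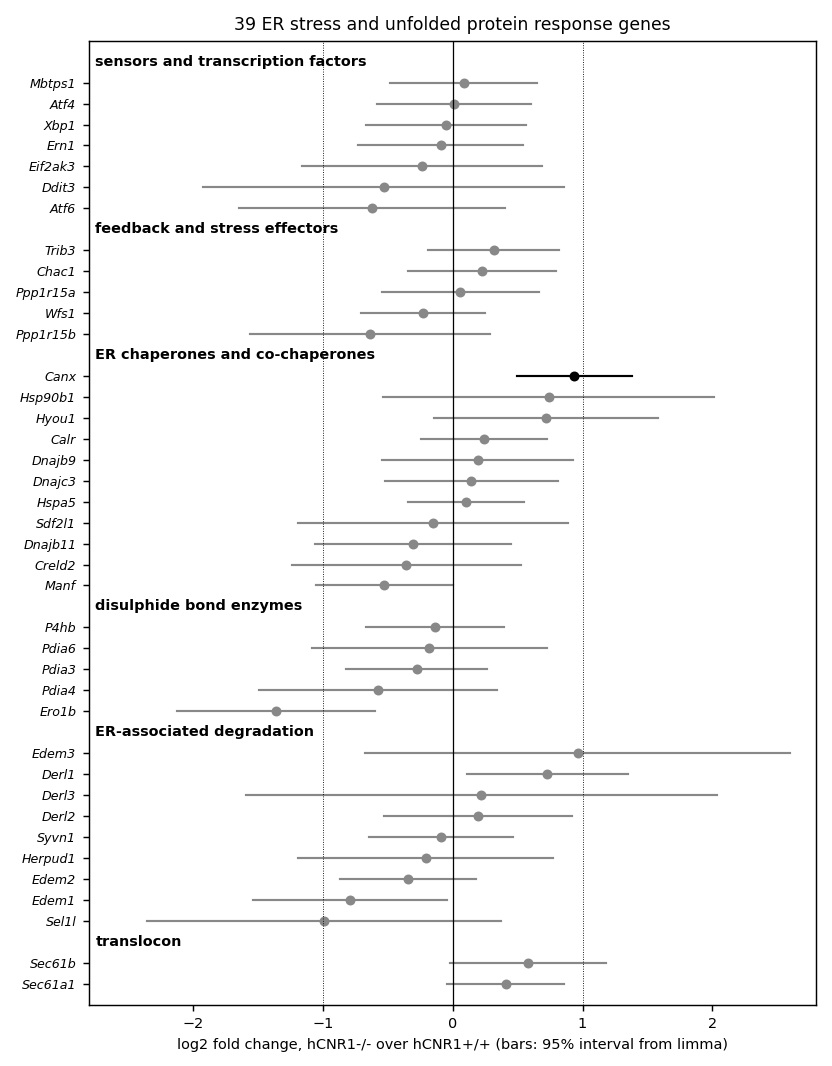
Log2 fold change (hCNR1-/- over hCNR1+/+) of the 39 genes, grouped by role, with the 95% interval from limma; dotted lines mark a 2-fold change and black marks an adjusted p below 0.05. Canx stands at 0.94 with an interval of 0.49 to 1.38, and Ero1b at −1.36 with an interval of −2.12 to −0.60.

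Of the 7 sensors and transcription factors, 0 were called by either rule, and their log2 fold changes ran from −0.62 to 0.08, with 2 above 0. This split moved with the processing. With quantile normalization (median −0.33), the 75th percentile of bright probes (−0.25), normexp (−0.12) and no scaling (−0.65) 0 of 7 were above 0. With array weights (0.19) or without hCNR1-/- replicate 4 (0.13) 5 of 7 were. Ern1, which encodes the kinase and RNase IRE1, had levels of 3.73, 3.89, 3.50 and 4.26 on the hCNR1+/+ arrays and 3.44, 4.28, 4.01 and 3.28 on the hCNR1-/- arrays. The groups overlapped throughout (log2 fold change −0.09, standard error, SE, 0.28, limma adjusted p = 0.878). Xbp1, the transcription factor whose mRNA IRE1 splices, had levels of 8.45, 8.62, 8.79 and 9.03 in hCNR1+/+ and 8.42, 9.22, 8.93 and 8.13 in hCNR1-/- hepatocytes. Here too the lowest and the highest array were both hCNR1-/- (log2 fold change −0.05, SE 0.28, limma adjusted p = 0.935). The probe gives the total signal of its site, and spliced and unspliced Xbp1 mRNA were not told apart.

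Eif2ak3, which encodes the kinase PERK, had levels of 1.69, 1.04, 1.49 and 1.53 in hCNR1+/+ and 1.53, 1.83, 1.59 and −0.14 in hCNR1-/- hepatocytes. Replicate 4 of the hCNR1-/- mice lay far below the other 7 arrays, which overlapped (log2 fold change −0.24, SE 0.41, limma adjusted p = 0.766). Atf4, the transcription factor downstream of PERK, stood at 9.61, 9.62, 9.44 and 9.96 in hCNR1+/+ and at 9.56, 10.17, 9.89 and 9.08 in hCNR1-/- hepatocytes. Its log2 fold change was 0.01 (SE 0.26, 95% interval −0.58 to 0.61, limma adjusted p = 0.983), and a second, dimmer probe differed by −0.16. Ddit3, which encodes the pro-apoptotic factor CHOP, had levels of 4.14, 3.60, 3.23 and 0.76 in hCNR1+/+ and 2.61, 2.41, 2.27 and 2.31 in hCNR1-/- hepatocytes. Of the hCNR1+/+ arrays, 3 of 4 lay above all hCNR1-/- arrays and the remaining array far below them. The log2 fold change of Ddit3 was −0.53 (SE 0.62, limma adjusted p = 0.652), and with replicate 4 of both genotypes left out it was −1.23 (limma adjusted p = 0.0165, where 15.4% of all genes were called higher and 4.34% lower). With 1 array left out it ran from −1.26 to −0.13, with limma adjusted p-values of 0.0505 to 0.928.

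Atf6, the Golgi-activated sensor, had levels of −1.002, −1.18, −1.53 and −0.96 in hCNR1+/+ and −0.94, −2.02, −1.04 and −3.16 in hCNR1-/- hepatocytes. It was a dim gene, measured well above background in 4 of 4 hCNR1+/+ and in 3 of 4 hCNR1-/- mice, and the groups overlapped (log2 fold change −0.62, SE 0.46, limma adjusted p = 0.463). Mbtps1, the site-1 protease that cuts ATF6, ran from 4.68 to 4.89 in hCNR1+/+ and from 4.29 to 5.38 in hCNR1-/- hepatocytes, with a log2 fold change of 0.08. In the scaling used here, the 95% interval of the log2 fold change of Ern1, Xbp1, Atf4 and Mbtps1 stayed within −0.73 and 0.65. A 2-fold difference lay outside it. For Eif2ak3, Ddit3 and Atf6 it reached beyond −1, so it still held a 2-fold lower level.

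The feedback and stress effectors include targets of ATF4 and CHOP and genes that restrain the response. Trib3, a pseudokinase induced by both factors, ran from 7.98 to 8.21 in hCNR1+/+ and from 7.92 to 8.75 in hCNR1-/- hepatocytes, with 3 of 4 hCNR1-/- arrays above all hCNR1+/+ arrays (log2 fold change 0.32, limma adjusted p = 0.448). Chac1, which degrades glutathione, had a log2 fold change of 0.23, and also here 3 of 4 hCNR1-/- arrays lay above all hCNR1+/+ arrays. Ppp1r15a (GADD34), the stress-induced subunit of the phosphatase that restores translation, had one of 0.06. Its constitutive counterpart Ppp1r15b (CReP) had one of −0.64, with hCNR1-/- replicate 4 at −0.21 and the other 3 hCNR1-/- arrays between 1.49 and 1.61. Wfs1, the ER membrane protein wolframin that restrains ATF6 signalling, had one of −0.23. In these 5 genes 0 passed either threshold, and the median was 0.06.

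Among the 11 ER chaperones and co-chaperones, Canx was the exception to overlapping groups. Calnexin holds newly made glycoproteins in the ER membrane until they are folded. Its levels were 3.06, 2.72, 2.72 and 3.03 on the hCNR1+/+ arrays and 3.81, 3.60, 4.05 and 3.81 on the hCNR1-/- arrays. Every hCNR1-/- array lay above every hCNR1+/+ array, and the spread within each genotype was small (2.88 ± 0.19 against 3.82 ± 0.18, SD, n = 4 each). The log2 fold change was 0.94 with an SE of 0.20 (limma adjusted p = 0.0362). Exact two-sided permutation of the genotype labels (70 assignments) gave p = 0.0286, the smallest it can give. The size of the difference held better than the call: under 23 alternatives of scaling, filter, model and arrays the log2 fold change of Canx stayed between 0.38 and 1.01, and limma's adjusted p lay between 0.00287 and 0.878 and was below 0.05 in 8 of the 23. When single arrays were left out, the adjusted p from limma was 0.056 to 0.129 without any of 7 of the arrays and 0.0194 without hCNR1-/- replicate 4.

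Calr, calreticulin, the soluble partner of calnexin with the same lectin activity, had a log2 fold change of 0.24 (95% interval −0.24 to 0.73). Its arrays ran from 6.70 to 7.51 in hCNR1+/+ and from 7.23 to 7.39 in hCNR1-/- hepatocytes, the narrowest range of the 39 genes in hCNR1-/- mice. Hspa5, the central ER chaperone BiP and the most used marker of the response, had levels of 9.08, 8.61, 8.53 and 8.66 in hCNR1+/+ and 8.71, 8.73, 8.91 and 8.94 in hCNR1-/- hepatocytes. Those of hCNR1-/- mice all lay within the range of the hCNR1+/+ mice. Its log2 fold change was 0.10 with an SE of 0.20 (95% interval −0.35 to 0.55, limma adjusted p = 0.794). Hsp90b1, the ER member of the HSP90 family (GRP94), had levels of 6.64, 5.87, 4.74 and 3.60 in hCNR1+/+ and 5.79, 5.58, 6.26 and 6.18 in hCNR1-/- hepatocytes. The hCNR1+/+ mice spread on both sides of the hCNR1-/- mice (log2 fold change 0.74, SE 0.57, limma adjusted p = 0.483), and the log2 fold change was 0.20 without hCNR1+/+ replicate 4 and 1.22 without hCNR1+/+ replicate 1. Hyou1 (GRP170), which exchanges the nucleotide of BiP, had a log2 fold change of 0.72, with overlapping levels of −0.82 to 1.00 in hCNR1+/+ and 0.61 to 1.51 in hCNR1-/- hepatocytes. It was 0.38 without hCNR1+/+ replicate 4.

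Of the co-chaperones that work with BiP 0 were called by either rule. Dnajb9 (ERdj4) had a log2 fold change of 0.19 for its brighter probe, but 1.46 for a dimmer probe that was well above background on all 8 arrays (unadjusted p = 0.00467 and adjusted p = 0.0686 when limma was run on each probe), so the probes of this gene disagreed. Dnajb11 (ERdj3) had one of −0.31, with a dimmer probe at 0.46, and Dnajc3 (p58IPK), which also inhibits PERK, had one of 0.14. Sdf2l1, a partner of ERdj3, had levels of 6.55, 5.92, 5.63 and 4.14 in hCNR1+/+ and 5.47, 5.07, 5.19 and 5.91 in hCNR1-/- hepatocytes (log2 fold change −0.15, limma adjusted p = 0.879). Creld2, a secreted ER stress protein, stood at 9.53, 9.16, 8.67 and 7.64 in hCNR1+/+ and at 8.38, 8.64, 8.65 and 7.90 in hCNR1-/- hepatocytes (log2 fold change −0.36, limma adjusted p = 0.634). In both genes the hCNR1+/+ arrays ranged more widely than the hCNR1-/- arrays. Manf, a secreted factor that stabilises BiP with its clients, had a log2 fold change of −0.53, with 3 of 4 hCNR1+/+ arrays above all hCNR1-/- arrays (limma adjusted p = 0.232, exact permutation p = 0.0571). The median of the 11 was 0.14 and 7 were above 0. With quantile normalization it was −0.04 with 5 above 0, and without scaling −0.41 with 3 above 0.

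**Figure D2:**
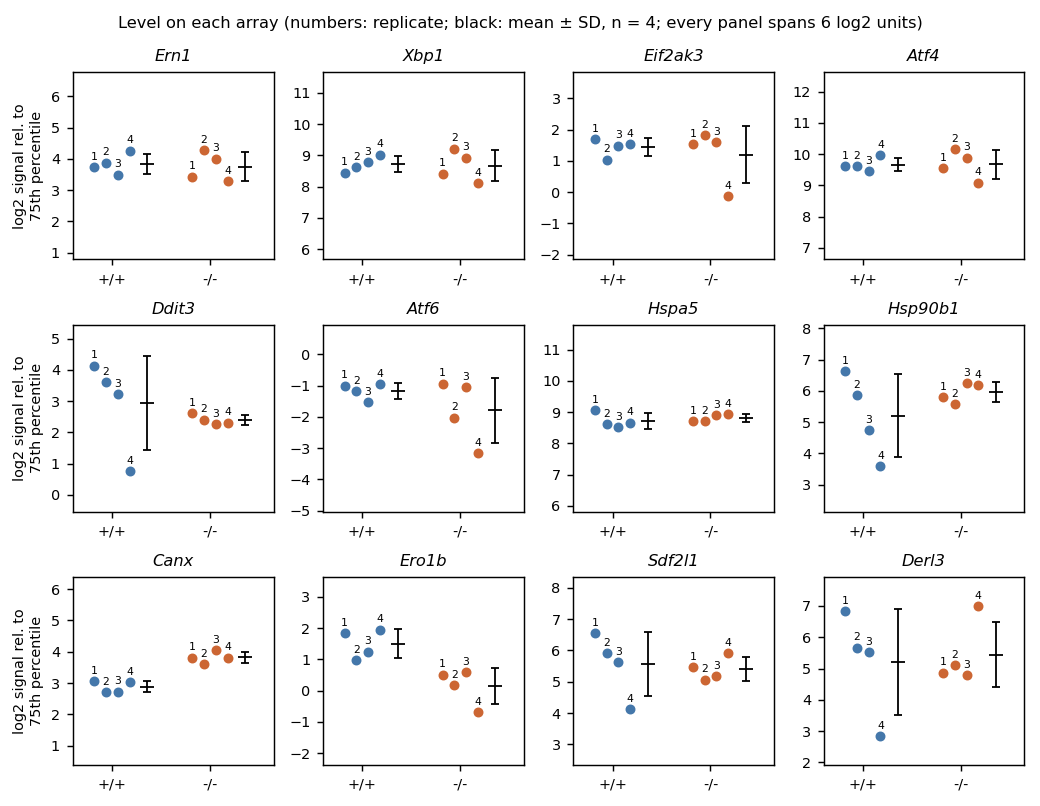
Level of 12 genes on each array (log2 signal relative to the array's 75th percentile), with hCNR1+/+ in blue, hCNR1-/- in orange and mean ± SD in black (n = 4). Canx and Ero1b are the genes whose groups did not overlap, and in Ddit3, Hsp90b1, Sdf2l1 and Derl3 hCNR1+/+ replicate 1 was the highest and replicate 4 the lowest of their group.

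All 5 disulphide bond enzymes had lower means in hCNR1-/- hepatocytes, with a median log2 fold change of −0.28, and 1 of the 5 met the study's threshold. Ero1b, which passes electrons from protein disulphide isomerase to oxygen, had levels of 1.83, 0.99, 1.25 and 1.95 in hCNR1+/+ and 0.51, 0.17, 0.59 and −0.69 in hCNR1-/- hepatocytes. Every hCNR1-/- array lay below every hCNR1+/+ array, and hCNR1-/- replicate 4, where the probe was not well above background, lay lowest. The log2 fold change was −1.36 (2.56-fold, SE 0.34, unadjusted p = 0.0028), with an adjusted p of 0.0554 from limma and an exact permutation p of 0.0286. Under 22 alternatives its log2 fold change stayed between −1.91 and −0.81, and limma's adjusted p was below 0.05 in 5 of them. Pdia4 (ERp72) had a log2 fold change of −0.58, and Pdia3 (ERp57), which works with calnexin and calreticulin, one of −0.28. For Pdia6 (P5) it was −0.18 and for P4hb, protein disulphide isomerase itself, −0.14, with adjusted p-values of 0.447 to 0.826 from limma for these 4. Replicate 4 of the hCNR1-/- mice had the lowest level of its group in all 5, and without that array 3 of the 5 were below 0 and 2 above it.

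Of the 9 genes of ER-associated degradation, 0 were called by either rule. Derl1, a channel component for misfolded proteins, had 3 of 4 hCNR1-/- arrays above all hCNR1+/+ arrays, from 5.89 to 6.58 in hCNR1+/+ and from 6.23 to 7.23 in hCNR1-/- hepatocytes. Its log2 fold change was 0.73 (SE 0.28, limma adjusted p = 0.167, exact permutation p = 0.0571), while a second probe, also well above background on all arrays, had one of −0.61. Derl2, its relative, had log2 fold changes of 0.20, −0.31 and −0.89 for 3 probes, from the brightest to the dimmest. Derl3, the third derlin, had levels of 6.85, 5.67, 5.53 and 2.84 in hCNR1+/+ and 4.87, 5.11, 4.79 and 7.004 in hCNR1-/- hepatocytes. The lowest array was hCNR1+/+ replicate 4 and the highest hCNR1-/- replicate 4, and the log2 fold change was 0.22 (SE 0.81, limma adjusted p = 0.900). Its sign rested on these arrays, since it was −0.57 without hCNR1+/+ replicate 4, −0.30 without hCNR1-/- replicate 4 and −1.09 without both (limma adjusted p = 0.0553), while it was 0.76 without hCNR1+/+ replicate 1. The 3 derlins thus gave no common direction across probes and arrays.

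Edem1, which extracts misfolded glycoproteins from the calnexin cycle, had a log2 fold change of −0.79, with 3 of 4 hCNR1+/+ arrays above all hCNR1-/- arrays (limma adjusted p = 0.206, exact permutation p = 0.0571). Its relatives had −0.34 (Edem2) and 0.96 (Edem3), and Edem3 was dim, with hCNR1+/+ levels from −4.06 to −0.32 and 3 of 4 arrays of each genotype well above background. Without hCNR1+/+ replicate 4, the array at −4.06, the log2 fold change of Edem3 was 0.19. Syvn1, the ubiquitin ligase HRD1, had a log2 fold change of −0.09, and Sel1l, its membrane adaptor, had one of −0.99 that rested on hCNR1-/- replicate 4. That array stood at −1.21, where Sel1l was not well above background, against 1.27 to 1.69 on the other hCNR1-/- arrays, and without it the log2 fold change was −0.30. Herpud1, which brings substrates to HRD1, had one of −0.21 and a wide spread in both genotypes, from 7.08 to 8.49 in hCNR1+/+ and from 6.60 to 8.39 in hCNR1-/- hepatocytes.

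Sec61a1 and Sec61b, subunits of the translocon through which new proteins enter the ER, had higher means in hCNR1-/- hepatocytes. For Sec61a1, the pore subunit, the log2 fold change was 0.41 (95% interval −0.04 to 0.86, limma adjusted p = 0.276), with 3 of 4 hCNR1-/- arrays between 7.92 and 8.32 above all hCNR1+/+ arrays. For Sec61b it was 0.58 (95% interval −0.02 to 1.18, limma adjusted p = 0.247), and its second probe had one of 0.45. Without scaling between the arrays Sec61a1 turned to −0.15. Sec61b reached an adjusted p of 0.0291 and Derl1 one of 0.0281 in limma without hCNR1-/- replicate 4, where 10.1% of all tested genes were called higher.

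**Figure D3:**
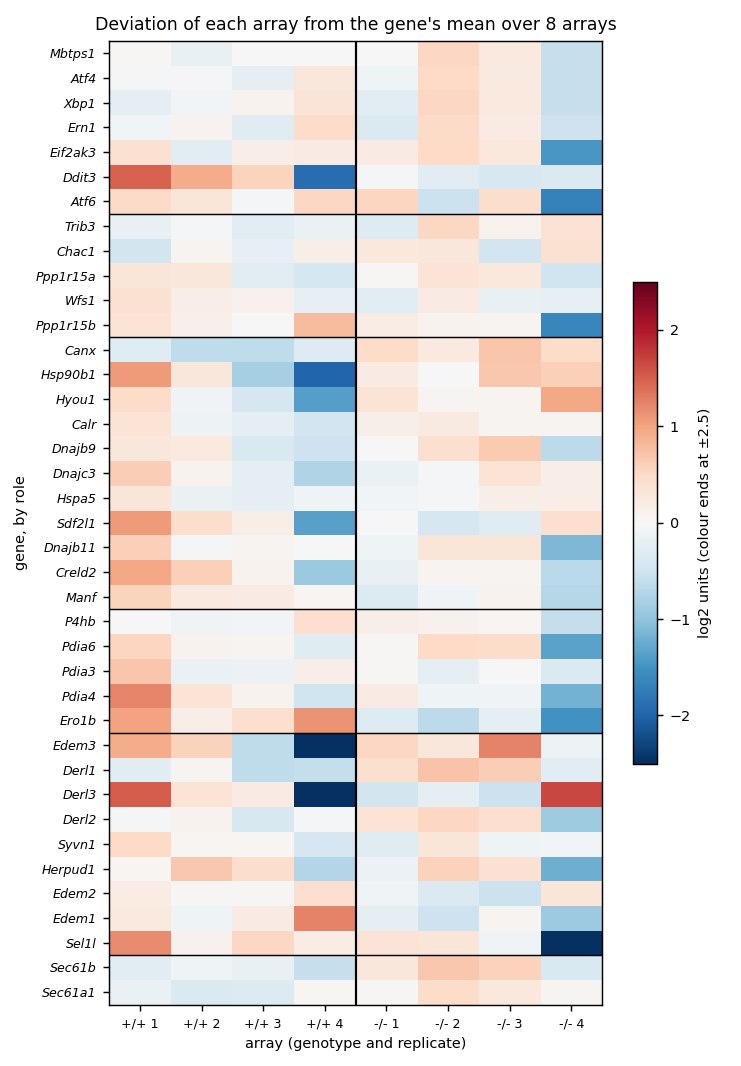
Difference of each array from the gene's mean over the 8 arrays (log2 units, red above and blue below) for the 39 genes, ordered by role (horizontal lines separate, from the top, sensors and transcription factors, feedback and stress effectors, chaperones, disulphide bond enzymes, degradation and translocon) and by fold change. Canx and Ero1b change colour at the line between genotypes, and hCNR1+/+ replicates 1 and 4 and hCNR1-/- replicate 4 carry most of the deep colours.

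Several of the 39 genes varied widely within the hCNR1+/+ mice, and the layout was alike in many of them. This count was chosen after the values had been seen and has no test. In 16 of the 39 genes (41.0%) hCNR1+/+ replicate 1 was the highest and hCNR1+/+ replicate 4 the lowest of the 4 hCNR1+/+ arrays, against 16.8% of all tested genes. It held for 8 of the 11 chaperones, 3 of the 9 degradation genes, 2 of the 5 disulphide bond enzymes, 2 of the 5 feedback genes, 1 of the 7 sensors and transcription factors and 0 of the 2 translocon subunits. The median difference of replicate 1 minus replicate 4 was 0.52 for the 39 genes and −0.10 for all tested genes. Derl3 spanned 16.1-fold within the hCNR1+/+ mice, Ddit3 10.4-fold, Hsp90b1 8.23-fold and Sdf2l1 5.33-fold. Edem3 had a range of 3.74 in log2 units, with replicate 4 not well above background. These 5 genes had an SD above 1 in hCNR1+/+ mice, which is 12.8% of the 39 against 4.44% of all tested genes. In hCNR1-/- mice the same genes spanned 4.64-fold (Derl3), 1.27-fold (Ddit3), 1.60-fold (Hsp90b1) and 1.79-fold (Sdf2l1). These genes were picked for their hCNR1+/+ spread, and over all 39 the median SD was 0.34 in hCNR1+/+ and 0.42 in hCNR1-/- mice, with 17 of the 39 more variable in hCNR1+/+ mice. For all tested genes the median SD was 0.29 and 0.45.

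Of the 16 genes with this layout 7 held the ERSE. Of the 10 genes whose promoter holds it, 7 (Hsp90b1, Calr, Dnajc3, Creld2, Pdia6, Derl3 and Syvn1) had replicate 1 highest and replicate 4 lowest among the hCNR1+/+ arrays, and in Hspa5 replicate 1 was also the highest but replicate 3 the lowest. Of the 23 genes with a promoter and no ERSE, 7 (30.4%) did. The median difference between these 2 mice was 0.89 for the 10 genes and 0.28 for the 23. Canx and Ero1b, which carry the element too, differed by 0.03 and −0.12 between them. Between genotypes the 10 genes had a median log2 fold change of 0.12 with 6 above 0, and the 23 genes one of −0.14 with 9 above 0. Other genes of the pathway (23 of 127, 18.1%) and cytosolic chaperones (6 of 36, 16.7%) had this layout about as often as all tested genes. The layout also followed role, with 8 of the 11 chaperones holding it. Among these were Sdf2l1 and Dnajb9, whose promoters had no ERSE, and Hyou1 and Manf, which had no promoter in the table. Element and role were therefore not told apart.

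Of the 7 sensors and transcription factors, Ddit3 alone had this layout. Replicate 4 was the highest hCNR1+/+ array for Ern1, Xbp1 and Atf4, where it lay 0.53, 0.57 and 0.34 above replicate 1, while it was the lowest for Ddit3, a target of ATF4. For Eif2ak3, Mbtps1 and Atf6 replicates 1 and 4 differed little, by 0.16, 0.02 and −0.04 (replicate 1 minus replicate 4). Other readings of the same array moved as well: it was the dimmest hCNR1+/+ array (75th percentile of 62.0, against 110 to 139), and it had the highest mean of the hepatocyte markers (9.10, against 8.43 to 8.60) and of the Kupffer cell markers (2.43, against 1.29 to 1.71). The mean of 16 immediate-early genes, which respond to cell isolation, was 3.18, 3.56, 4.09 and 4.12 on hCNR1+/+ replicates 1 to 4. In that of replicate 3, Egr2 alone stood at 3.69, against −1.92, −1.73 and −0.83 on replicates 1, 2 and 4. The mean of the 11 ER chaperones was 5.57, 5.10, 4.80 and 4.32 on replicates 1 to 4. The part of these readings in the layout was not tested. Quantile normalization gave 19 of the 39 genes (20.3% of all genes), scaling to the 75th percentile of bright probes 17 (20.8%), normexp background correction 12 (14.0%), the deposited z-scores 11 (22.6%), median scaling 23 (35.6%) and no scaling 27 (42.6%). The share of all genes was above 16.8% in each of these except normexp, and with the z-scores the 39 genes (28.2%) lay nearer to it than in the scaling used here.

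**Figure D4:**
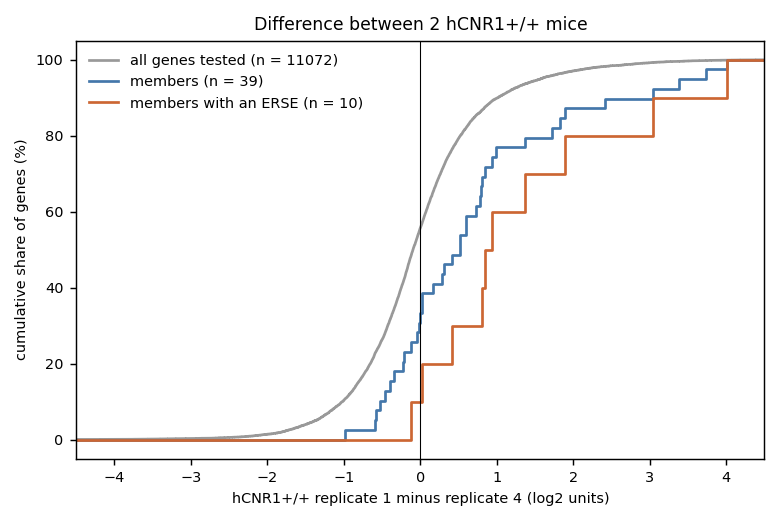
Cumulative share (%) of genes by the difference between hCNR1+/+ replicate 1 and replicate 4 (log2 units), for all 11072 tested genes, the 39 genes (members) and the 10 of them with an ERSE in the promoter. The curves of the 39 and of the 10 lie to the right of that of all genes, with medians of 0.52, 0.89 and −0.10.

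The wider pathway was read through 142 further genes in 5 lists, of which 127 were tested. At an adjusted p below 0.05 in limma 2 of the 127 were higher and 2 lower in hCNR1-/- hepatocytes. Of all tested genes 2.94% were higher and 1.30% lower by this rule. The median log2 fold change of the 127 was 0.18, against 0.08 for all tested genes. Ero1a, the more widely expressed relative of Ero1b, was the 1 gene of 25 called in ER folding and oxidation, with levels of −1.22, −0.64, −0.57 and 1.84 in hCNR1+/+ and −2.30, −4.16, −2.43 and −2.81 in hCNR1-/- hepatocytes (log2 fold change −2.77, SE 0.66, limma adjusted p = 0.0484). All hCNR1-/- arrays lay below all hCNR1+/+ arrays, but the probe was well above background on only 1 of 4 hCNR1-/- arrays. Its fold change therefore rests on signals near background in hCNR1-/- mice. Of 33 genes of the integrated stress response, the arm shared by PERK and the other kinases of eIF2α, 1 rose and 1 fell. Mthfd2, a mitochondrial folate enzyme and target of ATF4, had a log2 fold change of 0.97 (SE 0.21, limma adjusted p = 0.0393). Vldlr, the very low density lipoprotein receptor, which ATF4 is known to induce in liver, had one of −2.05 (SE 0.42, limma adjusted p = 0.0337). In this list 21 of the 33 log2 fold changes were above 0, with a median of 0.21, and the groups did not overlap for 9 genes upwards and 3 downwards (27.3% and 9.09%, against 12.7% and 5.04% of all tested genes). Among the 9, the serine synthesis enzyme Phgdh had a log2 fold change of 2.55 (limma adjusted p = 0.055), the seryl-tRNA synthetase Sars one of 0.82 (limma adjusted p = 0.0521) and the transcription factor Atf5 one of 0.81 (limma adjusted p = 0.0672). These 3 were picked from the upward genes after their values had been seen. By fold change above 2 and unadjusted p below 0.05 in limma, 1 of the 33 was higher and 3 were lower. Of all tested genes 4.78% were higher and 3.75% lower by that rule. Of 23 genes of translocation and signal peptide removal 1 rose, Srp54a, a subunit of the signal recognition particle (log2 fold change 2.83, SE 0.47, limma adjusted p = 0.0197), which has near-identical copies in the mouse genome, so which copy was measured is uncertain. In the lists of degradation (24 genes) and of regulators of the response (22 genes) 0 were called at an adjusted p below 0.05.

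Cytosolic chaperones, which answer to heat shock rather than to ER stress, had 2 of 36 genes called higher and 0 lower. Of all tested genes 2.94% were called higher and 1.30% lower. In the scaling used here, the only one given for this list, the median log2 fold change of the 36 was 0.20, against 0.08 for all tested genes. Hsp90aa1, the inducible cytosolic HSP90, had levels of 2.97, 2.75, 1.51 and 1.26 in hCNR1+/+ and 4.70, 4.23, 5.05 and 5.05 in hCNR1-/- hepatocytes (log2 fold change 2.63, limma adjusted p = 0.0165). Its co-chaperone Ptges3 (p23) had a log2 fold change of 1.01 (limma adjusted p = 0.0388). Its ER relative Hsp90b1 had an interval of −0.53 to 2.01 around 0.74, and the difference between the genes was not tested.

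Markers of the cell types that a hepatocyte preparation can hold were read beside these values. All 21 hepatocyte markers were tested, with a mean level of 8.64 ± 0.32 in hCNR1+/+ and 8.74 ± 0.18 in hCNR1-/- hepatocytes (SD, n = 4). Apob, the apolipoprotein of very low density lipoprotein, was the 1 of them called (log2 fold change 1.63, limma adjusted p = 0.0477), where 2.94% of all tested genes were called higher. By fold change and unadjusted p 2 were lower, against 3.75% of all tested genes. These were Pck1 of gluconeogenesis (−1.81, limma adjusted p = 0.0515) and Ass1 of the urea cycle (−1.14, limma adjusted p = 0.080). The groups overlapped in none of Apob, Pck1 and Ass1. Of all tested genes 12.7% upwards and 5.04% downwards had no overlap. Of 15 Kupffer cell markers 11 were tested, all 11 with lower means in hCNR1-/- preparations, as in 4808 of all 11072 tested genes. In limma 2 (Ctss and Marco) were called lower, against 1.30% of all tested genes. The mean level of the 11 ran from 1.29 to 2.43 in hCNR1+/+ and from 0.10 to 0.89 in hCNR1-/- mice. Of 12 T and NK cell markers 3 were tested, all 3 with higher means in hCNR1-/- preparations (median log2 fold change 0.61). The mean of these 3 was 3.57 to 4.01 in hCNR1+/+ and 4.10, 4.18, 3.98 and 5.30 in hCNR1-/- preparations, so replicate 4, the dimmest array, lay highest. The 1 neutrophil marker tested was also higher (0.70), again with hCNR1-/- replicate 4 highest (4.36, against 3.48 to 3.63 on the other hCNR1-/- arrays). The 2 tested stellate cell markers were lower (median −0.63). Of 9 tested sinusoidal endothelial markers 3 were higher and 6 lower, and of 2 tested cholangiocyte markers 1 was higher and 1 lower. In these lists 0 were called at an adjusted p below 0.05 in limma. Fewer cells of a type and less RNA per cell cannot be told apart in such samples. Derl3 is also abundant in plasma cells. Of 11 B and plasma cell markers 1 was tested, Sdc1, which hepatocytes express too, and it was at 5.25 to 5.60 in hCNR1+/+ and 4.98 to 5.12 in hCNR1-/- preparations. The part of other cells in the levels of Canx, Ero1b and Derl3 was not tested.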

How the data were processed

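RNA of isolated hepatocytes was measured on 8 one-colour Agilent arrays, 4 per genotype. The deposited intensity of each spot was written by Feature Extraction (version 12.0.3.1 per the file headers), which corrects background within an array and leaves arrays unscaled. A score per spot was deposited as well; it matched each array's own z-score of log intensity to 0.005. How the study scaled and tested its values is not given in the sources used here. The array design names an older genome build, and no probe coordinate was used.

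Samples were grouped by the genotype in their labels. Intensities were taken to log2 (pseudocount 0), less the 75th percentile of each array's 59305 non-control spots. Outlier-flagged spots were dropped and the spots of a probe averaged; a probe counted as well above background where at least 50% of its spots had that flag. Accessions, without versions, were matched to RefSeq names (GRCm38.p6) for 28331 of 55681 probes. A gene was read by its brightest probe and tested when at least 4 of 8 arrays had it well above background. The two-sided test was limma (version 3.58.1, R version 4.3.3, lmFit and eBayes), adjusted by Benjamini-Hochberg over 11072 genes; an exact permutation test (70 assignments) was run on single genes. The fit was tested on simulated data first. In place of depth, 28.6% to 42.3% of spots were well above background and 0 were saturated.

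The genes, their roles, the other pathway lists, the markers and the motifs were chosen with earlier results of these data known. Values of every array are given for 8 central genes (Hspa5, Hsp90b1, Ern1, Xbp1, Eif2ak3, Atf4, Ddit3 and Atf6), for genes past a threshold and for those without overlap between groups; Sdf2l1, Creld2 and Derl3, and of the other lists Phgdh, Sars, Atf5, Pck1 and Ass1, were added after their values had been seen. All 39 genes are named, and of the other lists those at an adjusted p below 0.05. Replicate numbers were not used to pair the mice in the main fit. Deviations of same-numbered arrays from their group means correlated at 0.21, −0.16, −0.05 and 0.02. Replicate 4 was the dimmest array of both genotypes. These values cannot show whether same-numbered mice were handled together. With 1 slide no slide block could be fitted. Median spot signals entered the normexp correction. Protein sequences were not analysed here. Alternatives are given in the closing section.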

Additional observations from a re-analysis of the deposited data

Results flagged for a closer look

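Each of the 39 genes and the mean of each of the 6 roles was examined in each genotype for 1 array far from the other 3, by the gap to the nearest array over the range of the group (Dixon's ratio at its 95% critical value). Of 90 groups 10 passed, where chance passes about 1 in 20 for a single group. The groups share the same arrays and the role means hold the same genes. They are therefore not independent, and the count is no test. In 7 of the 10 the array apart was hCNR1-/- replicate 4, the dimmest array. It was the lowest for Eif2ak3 (−0.14, against 1.53 to 1.83), Ppp1r15b (−0.21, against 1.49 to 1.61), P4hb (6.12, against 6.76 to 6.87), Derl2 (6.89, against 8.11 to 8.29) and Sel1l (−1.21, against 1.27 to 1.69), and for the mean of the 5 disulphide bond enzymes (3.54, against 4.46 to 4.56). It was the highest for Derl3 (7.004, against 4.79 to 5.11). Over all 39 genes it was the lowest hCNR1-/- array in 24 (61.5%), against 53.3% of all tested genes. The other 3 were Mbtps1 in hCNR1+/+ replicate 2 (4.68, against 4.87 to 4.89), Dnajb11 in hCNR1+/+ replicate 1 (5.86, against 5.24 to 5.34) and Chac1 in hCNR1-/- replicate 3 (7.17, against 7.91 to 8.02).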

How the results depend on the processing

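Canx kept its direction under 23 alternatives and Ero1b under 22, as given above. Of 39 genes 1 was called higher at an adjusted p below 0.05 in limma, against 2.94% of all genes. This became 0 with quantile normalization, median scaling, no scaling, the z-scores and normexp. It was also 0 with the 75th percentile of probes bright on all arrays, no filter on dim probes and the replicate block. In these settings 0% to 1.17% of all genes were higher. It was 5 with array weights (19.7% of all genes higher), 3 without replicate 4 of both genotypes (15.4%), and 0 to 3 with 1 array left out. The 3 came without hCNR1-/- replicate 4 (10.1%), and otherwise it was 0 (0.117% to 1.29%). The 0 called lower (1.30% of all genes) became 1 with the bright-probe percentile (1.89%), with probes bright on all arrays of 1 group (1.69%) and with array weights (5.83%). It became 2 without replicate 4 of both genotypes (4.34%), and 0 to 1 with 1 array left out (1 without hCNR1-/- replicate 4, 2.92%). By fold change and unadjusted p, the main fit called 4.78% of all genes higher and 3.75% lower. The 0 higher of the 39 became 1 with each probe on its own (Dnajb9, 708 of 13998 probes higher) and with array weights (572 of 11072 genes). With 1 array left out it was 0 to 1 (1 without hCNR1+/+ replicate 1, 604 of 11072, or hCNR1-/- replicate 2, 555). The 1 lower became 0 with normexp (100 of 11072), with probes bright on all 8 arrays (145 of 8371) and with array weights (313 of 11072). It became 2 without replicate 4 of both genotypes (311), and 1 to 2 with 1 array left out (2 without hCNR1+/+ replicate 4, 360). The median of −0.09 was −0.33 with quantile normalization, −0.65 without scaling, where that of all genes was −0.47, and −0.20 to 0.11 with 1 array left out. Array weights (0.12) and leaving out replicate 4 of both genotypes (0.10) also turned its sign, by less than the spread of 0.29 between arrays. Of 892 values of single genes 72 changed sign, in 21 genes, and 0 of these were past the threshold in either fit. The cause was not tested. With the replicate number as a block, 0 of the 39 and 0 of all genes had an adjusted p below 0.05 (limma), but 538 were higher and 397 lower by fold change and unadjusted p. What limits the data is 4 arrays per genotype and, for dim genes such as Atf6, Edem3, Sel1l and Ero1b, the background on hCNR1-/- replicate 4.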
